A study of Mus musculus with 12 samples.

Results

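Müller glia of the retina were followed here through 10 of their genes: the water channel gene Aqp4, the potassium channel gene Kcnj10, the glutamate-handling genes Slc1a3 and Glul, the retinoid-binding gene Rlbp1, the carbonic anhydrase gene Car2, the transcription factor gene Sox9, and Vim, Crym and Dkk3. The genes were taken as a set list by symbol from the gene count table, and make up 10 of the 55487 genes in it. All 10 were among the 16233 genes with enough counts to be tested.

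Müller glia span the whole depth of the retina and carry out its housekeeping. They take up glutamate released by neurons through the transporter GLAST (Slc1a3) and convert it to glutamine with glutamine synthetase (Glul). They let potassium and water leave the active layers through the channels Kir4.1 (Kcnj10) and aquaporin-4 (Aqp4), which gather on their endfeet at vessels and vitreous, and they hold visual-cycle retinoid on the binding protein CRALBP (Rlbp1).

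RNA of whole mouse retina was compared between WT mice of strain C57BL/6J and 5xFAD mice, whose strain label is Tg6799, at 1 and 6 months of age. 5xFAD mice model Alzheimer disease by means of mutant human APP, expressed from the Thy1 promoter, which is active in neurons. Transgene RNA was not analysed here, the labels name no littermate controls, and differences of strain background and of transgene cannot be told apart. There were 4 groups (WT and 5xFAD at each age) of 3 libraries each. The labels name no separate animal for each library, and p-values here speak to differences among these samples, part of which may be technical.

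Libraries held 10.9 to 19.6 M counts. Poly-A RNA was captured, and the kit does not mark strand. Several measures of the libraries moved with the groups. The mean length of the transcripts behind a count was 4194 to 4226 nt in the 5xFAD libraries of 1 month, 3579 to 3789 nt in WT at 1 month, 3699 to 4018 nt in WT at 6 months and 3632 to 3729 nt in 5xFAD at 6 months. Ribosomal RNA made up 1.44% of 5xFAD 6-month replicate 1, 0.758% of its replicate 2 and 0.555% of WT 1-month replicate 2, against at most 0.321% elsewhere. Summed markers of the pigment epithelium, the layer that adheres to the outer retina, read 51.9 to 65.4 CPM (counts scaled to the size of the library) in 5xFAD at 1 month and 79.7 to 190 in the other 9 libraries. Mitochondrial genes made up 2.95 to 3.16% of counts in 5xFAD at 1 month and 4.23 to 6.70% in the other 9 libraries, and their part in the 1-month results was not tested. Rod markers summed to 55318 to 59466 CPM in WT and 61319 to 65630 in 5xFAD at 1 month. At 6 months they summed to 50334 to 55082 CPM in WT and 60464 to 65222 in 5xFAD, so 5xFAD lay above WT at both ages. Markers of blood and lens summed to 66.9 to 156 CPM in WT and 101 to 160 in 5xFAD at 1 month. At 6 months they summed to 12.1 to 16.6 CPM in WT and 20.9 to 30.1 in 5xFAD. The part of the rod and of the blood and lens markers in the results was not tested. Results that move with transcript length, ribosomal RNA or pigment epithelium markers are given with them.

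Per unit of length, Glul was the highest of the genes and Sox9 the lowest. In TPM (counts divided by transcript length and scaled to the same sum in every library), group means of Glul ran from 1581 to 2011. Car2 (545 to 600 TPM), Rlbp1 (370 to 448 TPM) and Dkk3 (401 to 504 TPM) came next, and Rlbp1 and Dkk3 changed order between groups. Vim stood at 109 to 119 TPM, Slc1a3 at 83.5 to 117 TPM, Crym at 47.2 to 93.2 TPM and Aqp4 at 38.1 to 69.4 TPM. Vim and Slc1a3, Slc1a3 and Crym, and Crym and Aqp4 also changed order between groups, so these neighbours have no fixed rank. Below them, Kcnj10 read 17.2 to 35.2 TPM and Sox9 4.84 to 9.31 TPM. The length used for Aqp4 rests on the 43.2% of its counts that lay in transcripts of the annotation used here. All comparisons between groups below use CPM, which are not divided by a gene's length. Some of these values still moved with the mean transcript length of the library, as given below.

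**Figure D1:**
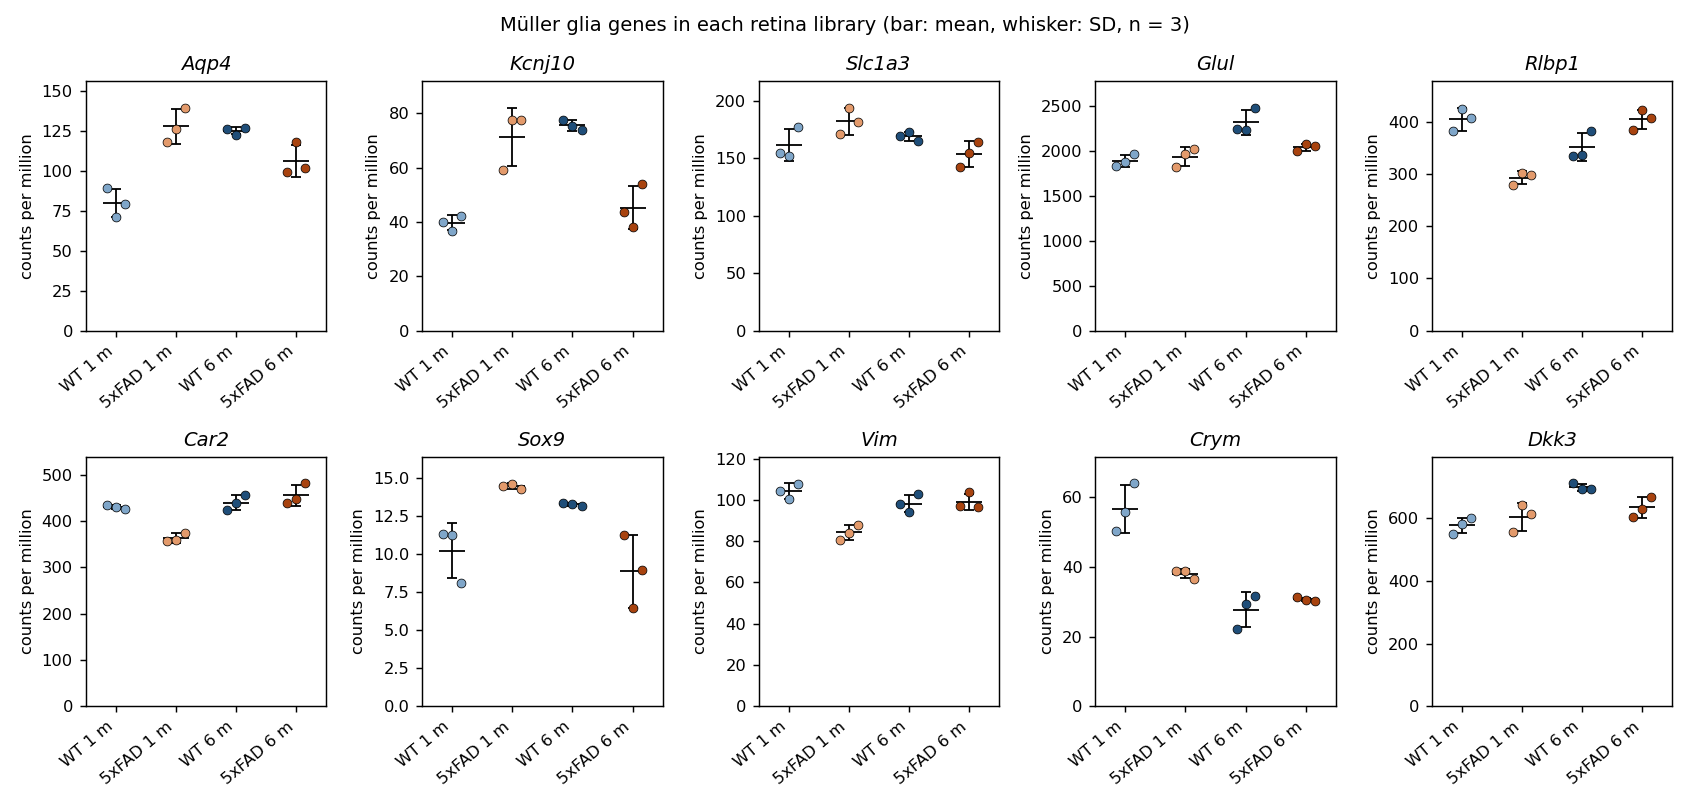
Level of each of the 10 genes in CPM (vertical axis, from 0) in the 3 libraries of each group (horizontal axis); points are libraries, bars group means and whiskers SD. Kcnj10 is high in 5xFAD at 1 month and WT at 6 months and low in the other groups, Rlbp1 is lowest in 5xFAD at 1 month (278 to 301), and Crym is highest in WT at 1 month (50.2 to 63.9).

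At 1 month the channel genes Aqp4 and Kcnj10 were higher in 5xFAD than in WT retina, and Rlbp1, Car2, Vim and Crym were lower. These 6 of 10 genes passed the test (edgeR, adjusted p below 0.05), 2 upward and 4 downward, where 19.6% of all tested genes did (10.7% upward and 8.91% downward). The groups did not overlap for 7 of the 10, against 37.6% of all genes. The median log2 fold change was 0.05 over the 10 genes and -0.04 over all tested genes. In whole retina, fewer cells of a type and less RNA per cell cannot be told apart.

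At 6 months Kcnj10 was lower in 5xFAD than in WT, and none of the other 9 genes passed the test. The background was 6.38% of genes called (2.48% upward and 3.89% downward). The groups did not overlap for 7 of the 10 genes, against 24.2% of all genes, and 5 of the 10 had an unadjusted p below 0.05. The median was -0.14 over the 10 genes and 0.00 over all.

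Between 1 and 6 months, WT and 5xFAD retinas did not move alike. In WT, Aqp4, Kcnj10, Glul and Dkk3 rose with age and Crym fell, 5 of 10 genes where 10.5% of all genes were called (6.01% upward and 4.49% downward). The ages did not overlap for 6 of the 10 (30.7% of all genes), and the median was 0.17 against -0.01 over all. In 5xFAD, Rlbp1 and Car2 rose and Kcnj10 and Sox9 fell, 4 of 10 where 23.2% were called (10.8% upward and 12.4% downward). There the ages did not overlap for 7 of the 10 (36.5% of all genes), and the median was -0.09 against 0.03. The test of the difference itself, the genotype effect at 6 months minus that at 1 month, passed for 5 of the 10 genes (Aqp4, Kcnj10, Sox9, Rlbp1 and Crym) and for 25% of all genes (11.7% upward and 13.3% downward). The 5 comparisons draw on the same 12 libraries and are not independent of each other.

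**Figure D2:**
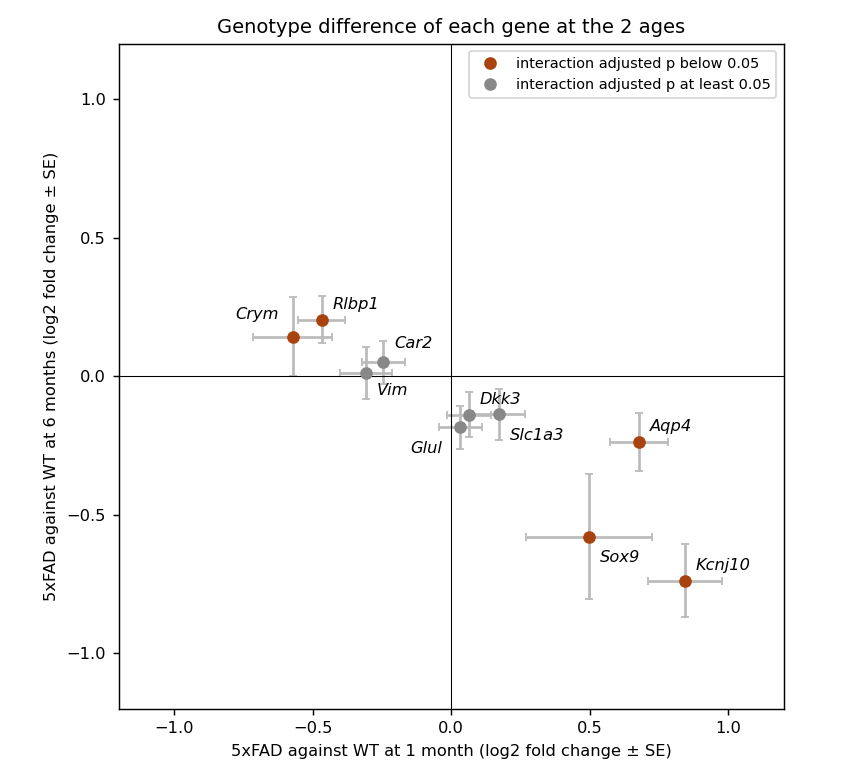
Log2 fold change of 5xFAD against WT at 1 month (horizontal axis) and at 6 months (vertical axis) for the 10 genes, with SE; orange marks genes whose difference between the ages passed the test. Kcnj10, Aqp4 and Sox9 lie to the lower right and Rlbp1 and Crym to the upper left; Glul, Dkk3, Slc1a3, Car2 and Vim did not pass.

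Aqp4 (ENSMUSG00000024411; chromosome 18, 15389496 to 15410982, minus strand, GRCm38) encodes the water channel of the glial endfeet. In WT at 1 month the libraries gave 89.2, 71.2 and 79.6 CPM, and those of 5xFAD gave 118, 127 and 139.7. At 6 months WT gave 126, 123 and 127 CPM and 5xFAD 99.2, 118 and 102. The 5xFAD libraries lay above every WT library at 1 month and below every one at 6 months, and WT at 6 months stood at about the 5xFAD level of 1 month. Aqp4 was 1.60-fold higher in 5xFAD at 1 month (log2 fold change 0.68, SE 0.11, adjusted p 9.79e-05) and did not pass at 6 months (-0.24, SE 0.10, adjusted p 0.193). With age it rose in WT (0.65, SE 0.11, adjusted p 0.000428) and did not pass in 5xFAD (-0.27, SE 0.10, adjusted p 0.0678). The genotype effects at the 2 ages differed by -0.91 (SE 0.15, adjusted p 8.36e-05). Of the fits with 1 library left out, the value with age in 5xFAD passed only without 5xFAD 6-month replicate 2 (-0.35, adjusted p 0.0351). An antisense gene that overlaps Aqp4 held 0 to 10 counts a library, which cannot be told apart without strand.

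Kcnj10 (ENSMUSG00000044708; chromosome 1, 172341210 to 172374085, plus strand) encodes Kir4.1, the inward rectifier through which Müller cells pass potassium. It had the largest genotype and interaction effects of the 10 genes. It stood at 40.1, 36.8 and 42.2 CPM in WT and, for 5xFAD, at 59.1, 77.5 and 77.5, when 1 month old. The older WT libraries held 77.5, 75.1 and 73.8 CPM, those of 5xFAD 43.6, 38.2 and 53.9. The 2 genotypes thus had exchanged places between the ages, with no overlap at either. Kcnj10 was 1.80-fold higher in 5xFAD at 1 month (log2 0.85, SE 0.13, adjusted p 0.000111) and at 0.60 of the WT level at 6 months (-0.74, SE 0.13, adjusted p 0.00151). It rose 1.90-fold with age in WT (0.93, SE 0.13, adjusted p 0.000124) and fell in 5xFAD (-0.66, SE 0.13, adjusted p 0.000962). The difference between the genotype effects was -1.58 (SE 0.19, adjusted p 2.37e-06).

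These Kcnj10 calls held with any 1 of the 12 libraries left out, and the 6-month difference then ran from -0.91 to -0.63. When the 3 libraries of most ribosomal RNA were left out, which leaves 1 library in 5xFAD at 6 months whose spread is assumed to be that of the other groups, the 6-month difference was -0.49 (adjusted p 0.126) and the change with age in 5xFAD was -0.39 (adjusted p 0.114), and neither passed.

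Only Kcnj10 and Rlbp1 of the genes with a RefSeq promoter entry were called in at least 3 of the comparisons, in opposite directions, and their promoters are shown for that reason. RefSeq (GRCm38.p6) gave a promoter window for 5 of the 10 genes (Glul, Kcnj10, Rlbp1, Slc1a3 and Vim). The bases before the annotated start of the gene are printed 5′ to 3′ on the strand of the gene, with capitals at matches, on either strand, to the motifs searched: the CCAAT box, the GC box written GGGCGG, the TATA box written TATAAA, a core of Sox factor sites written ACAAT, and a core of Otx and Crx sites written TAATCC. The motif of the Sox core shares its last letters with the CCAAT box but not its first, so their matches can overlap only on opposite strands.
Kcnj10, chr1:172340960-172341209, plus strand, 250 bases: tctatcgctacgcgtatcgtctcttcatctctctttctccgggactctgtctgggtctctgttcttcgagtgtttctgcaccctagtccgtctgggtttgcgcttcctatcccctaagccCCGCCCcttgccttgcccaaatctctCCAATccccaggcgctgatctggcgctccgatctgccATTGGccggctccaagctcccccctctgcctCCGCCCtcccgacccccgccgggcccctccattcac
Rlbp1, chr7:79387049-79387277, minus strand, 229 bases: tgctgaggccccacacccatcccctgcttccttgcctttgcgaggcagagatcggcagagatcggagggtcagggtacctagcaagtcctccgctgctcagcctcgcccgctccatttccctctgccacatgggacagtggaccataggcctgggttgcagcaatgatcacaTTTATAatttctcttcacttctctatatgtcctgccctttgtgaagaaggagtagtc

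The Kcnj10 window had a GC content of 62% with 2 CCAAT and 2 GGGCGG matches and no TATAAA. That of Rlbp1 had 55% GC and 1 TATAAA match and neither of the other 2. Over 32851 promoter windows, CCAAT was found in 33.8%, GGGCGG in 32.7%, ACAAT in 27.7%, TATAAA in 12.4% and TAATCC in 6.25%. Of the 5 windows of these genes, 4 held CCAAT, 3 GGGCGG, 3 TATAAA, 1 ACAAT and 0 TAATCC. The Vim window (chromosome 2, 13574061 to 13574310) lies after the start of the gene used in this text (13573927). Its 2 CCAAT matches and 1 TATAAA match are thus inside the gene as placed here. These are matches of letters only.

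Other genes of water and potassium handling were taken from lists. For these and the lists below, the shares of all tested genes called were 19.6% at 1 month and 6.38% at 6 months. They were 10.5% with age in WT, 23.2% with age in 5xFAD and 25% in the difference between the ages. Of 12 tested genes of aquaporins and the dystrophin complex, which anchors aquaporin-4 and Kir4.1 at the endfoot, 4 were higher and 1 lower in 5xFAD at 1 month (median 0.19). Utrophin (Utrn) had a log2 fold change of 0.98 (SE 0.15, adjusted p 9.65e-05), dystroglycan (Dag1) of 0.64 (adjusted p 0.000918) and dystrobrevin alpha (Dtna) of 0.43 (adjusted p 0.0195). Agrin (Agrn), a matrix ligand of dystroglycan, was lower (-0.36, adjusted p 0.0312). The effects at the 2 ages differed for 6 genes, among them Utrn (-1.47, adjusted p 2.67e-05), Dag1 (-0.95) and Dtna (-0.78).

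Of 12 tested potassium genes, 3 were higher in 5xFAD at 1 month and 2 lower at 6 months (19.6% and 6.38% of all genes were called). The large-conductance channel gene Kcnma1 was at 0.76 (SE 0.10, adjusted p 2.75e-05) at 1 month and -0.56 (SE 0.10, adjusted p 0.00221) at 6 months. The inward rectifier gene Kcnj2 was at 0.90 (SE 0.28, adjusted p 0.0229) and -0.98 (SE 0.27, adjusted p 0.0334), and the sodium pump subunit gene Atp1b2 was higher at 1 month (0.31, SE 0.07, adjusted p 0.00507). With age in WT 4 of the 12 rose and none fell (10.5% of all genes were called). The difference between the genotype effects passed for 4, all negative (25% of all genes), among them Kcnma1 (-1.33), Kcnj2 (-1.88) and Atp1b2 (-0.47). Neurons express several of these genes too. With the 3 libraries of most ribosomal RNA left out, 0 of the potassium genes passed at 6 months.

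Neither glutamate gene passed between genotypes at 1 or 6 months. Slc1a3 (ENSMUSG00000005360; chromosome 15, 8634124 to 8710764, minus strand), the glutamate transporter GLAST, had 1-month levels of 155, 153 and 178 CPM (WT) and 171, 194 and 182 CPM (5xFAD). Its 6-month levels were 170, 173 and 165 CPM (WT) and 142, 155 and 164 CPM (5xFAD). The groups overlapped at 1 month and lay just apart at 6 months. The differences were 0.17 (SE 0.09, adjusted p 0.204) and -0.14 (SE 0.09, adjusted p 0.434), and that between the ages was -0.31 (SE 0.13, adjusted p 0.0866). Once the dependence on length and GC was taken out of each library, the 1-month value turned to -0.00991. The difference between the ages passed without WT 1-month replicate 3 (-0.43, adjusted p 0.0244) or 5xFAD 6-month replicate 3 (-0.41, adjusted p 0.0233). The change with age in 5xFAD was -0.24 (SE 0.09, adjusted p 0.0598) and passed without the same libraries (-0.25, adjusted p 0.0457, and -0.31, adjusted p 0.0246).

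Glul (ENSMUSG00000026473; chromosome 1, 153899944 to 153909723, plus strand), glutamine synthetase, gave 1831, 1869 and 1960 CPM in the young WT libraries, while 5xFAD of the same age gave 1816, 1958 and 2020, values that overlapped. By 6 months WT stood at 2243, 2224 and 2476 CPM and 5xFAD at 1992, 2071 and 2051, all below WT. The difference was 0.03 (SE 0.08, adjusted p 0.806) at 1 month and -0.18 (SE 0.08, adjusted p 0.166) at 6 months. With age Glul rose 1.23-fold in WT (0.29, SE 0.08, adjusted p 0.0152) and had a value of 0.08 (SE 0.08, adjusted p 0.514) in 5xFAD. The difference of those effects did not pass (-0.22, SE 0.11, adjusted p 0.150). The counts of Glul are fractional, so part of its reads were assigned between similar sequences, and without strand those of the overlapping gene Teddm2 (3 to 34 counts a library) cannot be told apart.

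Of 13 tested genes of glutamate and glutamine transport, 2 were higher in 5xFAD at 1 month, where 19.6% of all genes were called. They were the glutamine transporter gene Slc38a1 (0.78, SE 0.11, adjusted p 2.66e-05) and the glutamate transporter gene Slc1a2 (0.60, SE 0.08, adjusted p 3.38e-05), which astrocytes, bipolar cells and cones also express. At 6 months Slc38a1 was lower (-0.42, SE 0.11, adjusted p 0.0173). The median over the 13 was 0.02 at 1 month and 0.07 at 6 months.

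Rlbp1 (ENSMUSG00000039194; chromosome 7, 79374870 to 79387048, minus strand) encodes CRALBP, a carrier of 11-cis-retinoids in Müller glia and in the pigment epithelium. It stood at 381, 425 and 407 CPM in WT and, for 5xFAD, at 278, 301 and 298, when 1 month old. The older WT libraries held 335, 335 and 381 CPM, those of 5xFAD 384, 421 and 407. The 5xFAD libraries were below all WT libraries at 1 month and above all of them at 6 months, there by a narrow margin. Rlbp1 was at 0.723 of the WT level at 1 month (log2 -0.47, SE 0.08, adjusted p 0.000408), and its 6-month value of 0.21 (SE 0.08, adjusted p 0.154) did not pass. It rose with age in 5xFAD (0.47, SE 0.08, adjusted p 0.000344) and had -0.21 (SE 0.08, adjusted p 0.125) in WT. The WT value passed without WT 6-month replicate 3 (-0.27, adjusted p 0.0425). The genotype effects differed by 0.67 (SE 0.12, adjusted p 0.000217).

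Pigment epithelium markers and Rlbp1 were both lowest in the 5xFAD libraries of 1 month. Of 12 tested markers of 14 listed, 6 were lower in 5xFAD at 1 month and 0 higher, where 19.6% of all genes were called. Their sum was 111 to 190 CPM in WT at 1 month, 51.9 to 65.4 in 5xFAD at 1 month, 89.6 to 150 in WT at 6 months and 79.7 to 128 in 5xFAD at 6 months. Rlbp1 itself had means of 404 ± 22.0 CPM in WT and 292 ± 12.6 CPM in 5xFAD at 1 month (SD, n = 3). The part of this layer in the Rlbp1 value was not tested. Up to 4 of the markers were at 0 in a library.

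**Figure D3:**
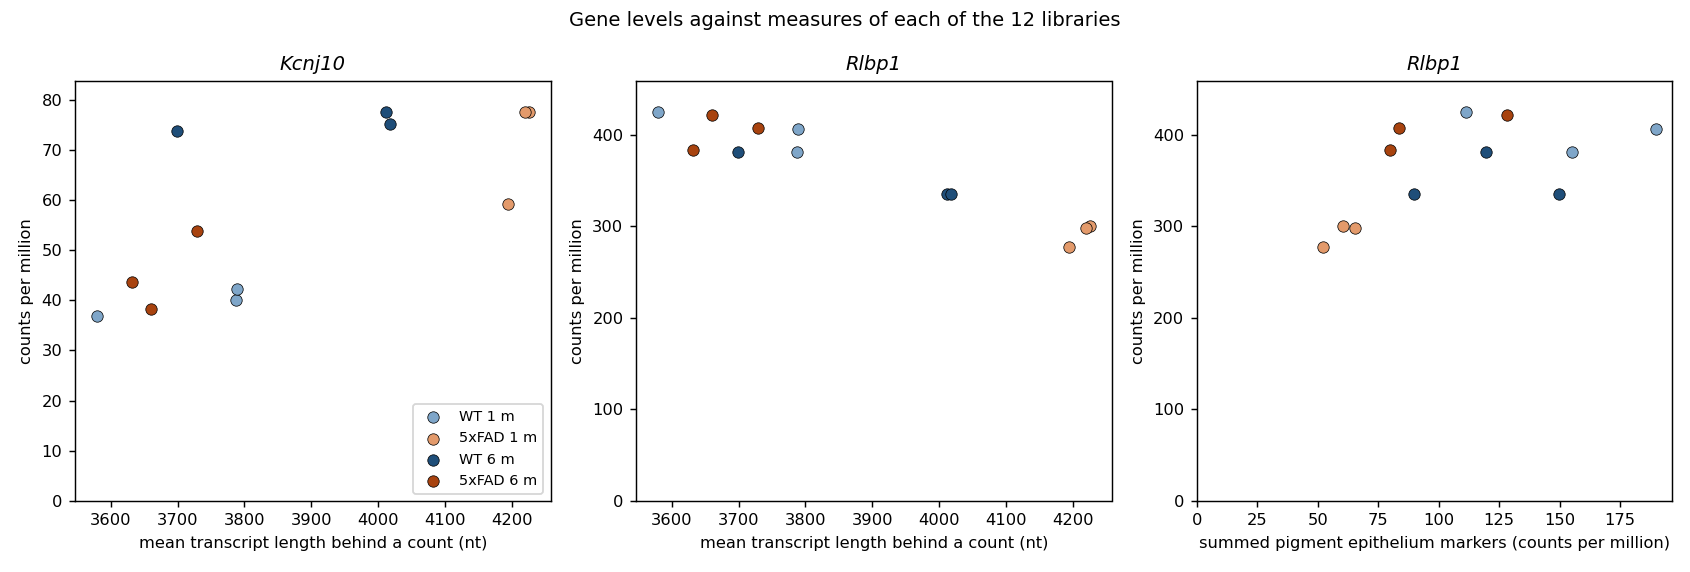
Level of Kcnj10 and Rlbp1 in CPM (vertical axes) in each of the 12 libraries against the library's mean transcript length in nt (left and middle) and the summed pigment epithelium markers in CPM (right). The 5xFAD libraries of 1 month have the longest mean (4194 to 4226 nt) and the lowest marker sums (51.9 to 65.4). WT at 6 months has 73.8 to 77.5 CPM of Kcnj10 at 3699 to 4018 nt.

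Of 14 tested retinoid-cycle genes, 2 were higher and 5 lower in 5xFAD at 1 month (median -0.33). Of all tested genes 19.6% were called at 1 month and 6.38% at 6 months. Among those lower were Rpe65, the isomerase of the pigment epithelium (-2.74, SE 0.46, adjusted p 0.000202), and the retinal reductase gene Dhrs3 (-0.42, SE 0.12, adjusted p 0.0119). Higher was Rbp3, the photoreceptors' interphotoreceptor retinoid-binding protein (0.65, SE 0.07, adjusted p 3.54e-06). At 6 months 0 of 14 passed (2 had an unadjusted p below 0.05, and 0 passed the Wald test of DESeq2).

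Car2 (ENSMUSG00000027562; chromosome 3, 14886273 to 14900770, plus strand), carbonic anhydrase 2, which interconverts CO2 and bicarbonate, had 1-month levels of 434, 431 and 426 CPM (WT) and 356, 359 and 375 CPM (5xFAD). Its 6-month levels were 424, 439 and 456 CPM (WT) and 438, 447 and 481 CPM (5xFAD). The 5xFAD libraries of 1 month were the lowest of the 12. Car2 was at 0.844 of the WT level at 1 month (-0.24, SE 0.08, adjusted p 0.0279), with 0.05 (SE 0.08, adjusted p 0.780) at 6 months. It rose with age in 5xFAD (0.33, SE 0.08, adjusted p 0.00368). The difference of the genotype effects, 0.30 (SE 0.11, adjusted p 0.0505), passed without WT 6-month replicate 3 (0.32, adjusted p 0.0321). The 1-month call was kept in only 3 of 12 fits with a library left out. It was lost without any of the 6 libraries of 1 month, WT 6-month replicate 1 or 2 or 5xFAD 6-month replicate 1, with values from -0.27 to -0.22 and adjusted p up to 0.104.

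Of 9 tested genes of acid-base and lactate transport, 1 was higher and 4 lower in 5xFAD at 1 month, where 19.6% of all genes were called. At 6 months 0 passed in edgeR, 1 had an unadjusted p below 0.05 and 1 passed the Wald test of DESeq2. The membrane carbonic anhydrase gene Car14, which Müller glia and pigment epithelium express, had -0.75 (SE 0.12, adjusted p 0.000122). Slc16a8, a lactate transporter of the pigment epithelium, had -3.17 (SE 0.74, adjusted p 0.00367) and Bsg, the chaperone of such transporters, -0.33 (SE 0.09, adjusted p 0.0150).

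Sox9 (ENSMUSG00000000567; chromosome 11, 112782224 to 112787760, plus strand), a transcription factor that marks Müller nuclei, was the lowest of the genes. It gave 11.3, 11.2 and 8.13 CPM in the young WT libraries, while 5xFAD of the same age gave 14.5, 14.6 and 14.3. By 6 months WT stood at 13.3, 13.3 and 13.2 CPM and 5xFAD at 11.3, 6.47 and 8.94. The groups were apart at both ages, in opposite order, on counts of 80 to 261 a library. Neither genotype difference passed (0.50, SE 0.23, adjusted p 0.130 at 1 month and -0.58, SE 0.23, adjusted p 0.135 at 6 months). The difference between them did (-1.08, SE 0.32, adjusted p 0.0161), as did the fall with age in 5xFAD (-0.70, SE 0.23, adjusted p 0.0286). The fall was lost without 5xFAD 6-month replicate 2 (-0.52, adjusted p 0.126) and without any 1 of the 5xFAD libraries of 1 month (adjusted p 0.0674 to 0.0741), and when the 3 libraries of most ribosomal RNA were left out (-0.68, adjusted p 0.126).

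Other transcription factors of glial and progenitor identity were tested as a list of 17. Of all tested genes 19.6% were called at 1 month and 6.38% at 6 months. At 1 month Nfix (0.51, SE 0.15, adjusted p 0.0211) and the receptor gene Notch1 (0.63, SE 0.21, adjusted p 0.0362) were higher in 5xFAD and 0 were lower. At 6 months Rax was higher (0.48, SE 0.13, adjusted p 0.0301) and Six3 lower (-0.38, SE 0.10, adjusted p 0.0291).

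Vim (ENSMUSG00000026728; chromosome 2, 13573927 to 13582826, plus strand) encodes vimentin, the intermediate filament of Müller glia, which vessel and connective tissue cells also hold. It stood at 104, 100 and 108 CPM in WT and, for 5xFAD, at 80.7, 83.9 and 87.9, when 1 month old. The older WT libraries held 97.9, 94.1 and 103 CPM, those of 5xFAD 96.9, 104 and 96.5. The groups were apart at 1 month and overlapped at 6 months. Vim was at 0.808 of the WT level at 1 month (-0.31, SE 0.09, adjusted p 0.0227) and had 0.01 (SE 0.09, adjusted p 0.966) at 6 months. The 1-month call was lost without WT 1-month replicate 1 (-0.28, adjusted p 0.0726) or 3 (-0.26, adjusted p 0.101), 5xFAD 1-month replicate 1 (-0.28, adjusted p 0.0966) or 2 (-0.30, adjusted p 0.0746), or WT 6-month replicate 1 or 2 (-0.29 each, adjusted p 0.0529 and 0.0542). Markers of fibroblasts and sclera summed to 229 to 240 CPM in WT and 87.3 to 102 in 5xFAD at 1 month, with 2 of 7 tested lower, and their part in the Vim value was not tested. Both called genes encode collagen VI, and Col6a1 alone had means of 199.7 and 76.8 CPM. The fibroblast genes Col1a1 (2.87 and 1.92 CPM) and Dcn (0.479 and 0.231 CPM) were low in both groups and did not pass.

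Crym (ENSMUSG00000030905; chromosome 7, 120186380 to 120202111, minus strand) encodes mu-crystallin, a binding protein of thyroid hormone. It had 1-month levels of 50.2, 55.6 and 63.9 CPM (WT) and 38.8, 38.9 and 36.4 CPM (5xFAD). Its 6-month levels were 22.0, 29.3 and 31.7 CPM (WT) and 31.2, 30.4 and 30.3 CPM (5xFAD). WT at 1 month stood above the other 9 libraries. Crym was at 0.673 of the WT level at 1 month (-0.57, SE 0.14, adjusted p 0.00620) and had 0.14 (SE 0.14, adjusted p 0.638) at 6 months. It fell to 0.491 with age in WT (-1.03, SE 0.14, adjusted p 9.06e-05), with -0.31 (SE 0.14, adjusted p 0.125) in 5xFAD, and the genotype effects differed by 0.71 (SE 0.20, adjusted p 0.0115). The 1-month call was lost without WT replicate 3 of that age (-0.45, adjusted p 0.0510), and the interaction without the same library (0.57, adjusted p 0.0538), without WT 6-month replicate 1 (0.53, adjusted p 0.0712), or with the 3 libraries of most ribosomal RNA left out (0.72, adjusted p 0.0589).

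Dkk3 (ENSMUSG00000030772; chromosome 7, 112116017 to 112159057, minus strand) encodes a secreted glycoprotein of the dickkopf family. It gave 551, 581 and 599 CPM in the young WT libraries, while 5xFAD of the same age gave 555, 643 and 614. By 6 months WT stood at 711, 692 and 692 CPM and 5xFAD at 604, 630 and 669. WT at 6 months was above the other 9 libraries. The genotype differences were 0.06 (SE 0.08, adjusted p 0.629) and -0.14 (SE 0.08, adjusted p 0.346). Dkk3 rose 1.21-fold with age in WT (0.27, SE 0.08, adjusted p 0.0300), a call lost without WT 1-month replicate 1 (0.28) or 2 (0.28) or WT 6-month replicate 1 (0.29) or 2 (0.32), with adjusted p 0.0602 to 0.0774.

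Of 17 tested genes in a further list of Müller glia genes, 4 were higher and 1 lower in 5xFAD at 1 month (median -0.11). At 6 months 0 were higher and 2 lower. Of all tested genes 19.6% were called at 1 month and 6.38% at 6 months. The receptor gene Kdr, which endothelium expresses as well, had 0.72 (SE 0.11, adjusted p 6.30e-05) and -0.62 (SE 0.11, adjusted p 0.000999), and the transporter gene Abca8a 0.42 (SE 0.08, adjusted p 0.00100) and -0.33 (SE 0.08, adjusted p 0.0180). The antioxidant gene Prdx6 was lower at 1 month (-0.37, SE 0.11, adjusted p 0.0194). The difference between the ages passed for 7 of the 17, 2 positive and 5 negative, and for 25% of all genes.

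Of 16 tested genes of reactive glia, ceruloplasmin (Cp) was the only one called between genotypes. Of all tested genes 19.6% were called at 1 month and 6.38% at 6 months. Cp alone is described next. It was higher in 5xFAD at 1 month (0.58, SE 0.13, adjusted p 0.00196) and lower at 6 months (-0.48, SE 0.12, adjusted p 0.0216). The filament gene Gfap is given as the usual marker of reactive glia. It did not pass at 1 month (0.87, SE 0.39, adjusted p 0.129) or 6 months (0.19, adjusted p 0.849), and fell with age in 5xFAD (-1.45, SE 0.40, adjusted p 0.0120). Astrocyte markers, whose list shares genes with those of Müller glia, summed to 262 to 296 CPM in WT and 406 to 432 in 5xFAD at 1 month, and 1 of 6 tested was higher, Slc1a2. At 6 months they summed to 344 to 356 CPM in WT and 288 to 317 in 5xFAD. Most of that sum is Slc1a2, with means of 318 and 274 CPM at 6 months, when the means of Aldh1l1 were 11.1 and 15.7 CPM and those of Gfap 4.94 and 5.64 CPM, so the sum is not a measure of astrocytes alone. Markers of endothelium, on which the endfeet lie, summed to 185 to 223 CPM in WT and 287 to 329 in 5xFAD at 1 month, with 2 of 10 higher, Kdr and Flt1. At 6 months they summed to 208 to 243 and 157 to 168 CPM, with Kdr lower. Kdr and Flt1 make up most of this sum, and Kdr is also in the further list of Müller glia genes. Their part in the changes of Aqp4 and Kcnj10 was not tested.

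The direction of the genotype difference at 1 month followed transcript length among the 10 genes. The 5 with the longest mean transcripts (Kcnj10 5407, Aqp4 4913, Slc1a3 4161, Sox9 4135 and Dkk3 3359 nt) had positive values, Glul (2783 nt) was near 0, and the 4 called lower were the 4 shortest (Crym 1416, Car2 1773, Vim 2041 and Rlbp1 2101 nt). Across the 12 libraries, which share groups and depth, log2 CPM had a Pearson correlation with the library's mean transcript length of -0.952 for Rlbp1, -0.826 for Car2, -0.811 for Vim, 0.808 for Slc1a3, 0.737 for Kcnj10, 0.661 for Sox9 and 0.644 for Aqp4. It was -0.162 for Crym, -0.0947 for Glul and 0.0552 for Dkk3.

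With each library's trend on length and GC content removed, 3 of the 6 calls at 1 month were kept: Kcnj10 at 0.58 (adjusted p 0.00167), Aqp4 at 0.37 (adjusted p 0.0181) and Rlbp1 at -0.31 (adjusted p 0.00172). Car2 (-0.09, adjusted p 0.392), Vim (-0.13, adjusted p 0.363) and Crym (-0.26, adjusted p 0.222) were lost. At 6 months Kcnj10 was at -0.61 (adjusted p 0.00179), and Glul passed as well (-0.19, adjusted p 0.0488). With age in WT the same 5 genes passed (Aqp4 0.47, Kcnj10 0.82, Crym -0.89). In 5xFAD with age, Kcnj10 (-0.37, adjusted p 0.0348) and Rlbp1 (0.35) passed, Car2 (0.17, adjusted p 0.0557) and Sox9 (-0.53, adjusted p 0.121) were lost and Crym (-0.57, adjusted p 0.00490) was gained. The interaction passed for Kcnj10 (-1.19, adjusted p 1.53e-05), Aqp4 (-0.48, adjusted p 0.0203) and Rlbp1 (0.47, adjusted p 0.000521), and no longer for Sox9 (-0.83, adjusted p 0.0687) or Crym (0.32, adjusted p 0.266). Mean transcript lengths were 3787, 3579 and 3789 nt in the WT libraries of 1 month and 4012, 4018 and 3699 nt in those of 6 months. Kcnj10 stood at 40.1, 36.8 and 42.2 CPM in the former and 77.5, 75.1 and 73.8 CPM in the latter. The part of length in this rise beyond the trend was not tested. Of the lists at 1 month, the trend's removal took the further Müller glia list from 4 higher and 1 lower to 2 and 0, the transcription factors from 2 higher to 0, and the glutamate list from 2 higher to 1. The aquaporin and dystrophin list went from 4 higher and 1 lower to 3 and 2, and to 2 and 2 with the 3 libraries of most ribosomal RNA left out.

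**Figure D4:**
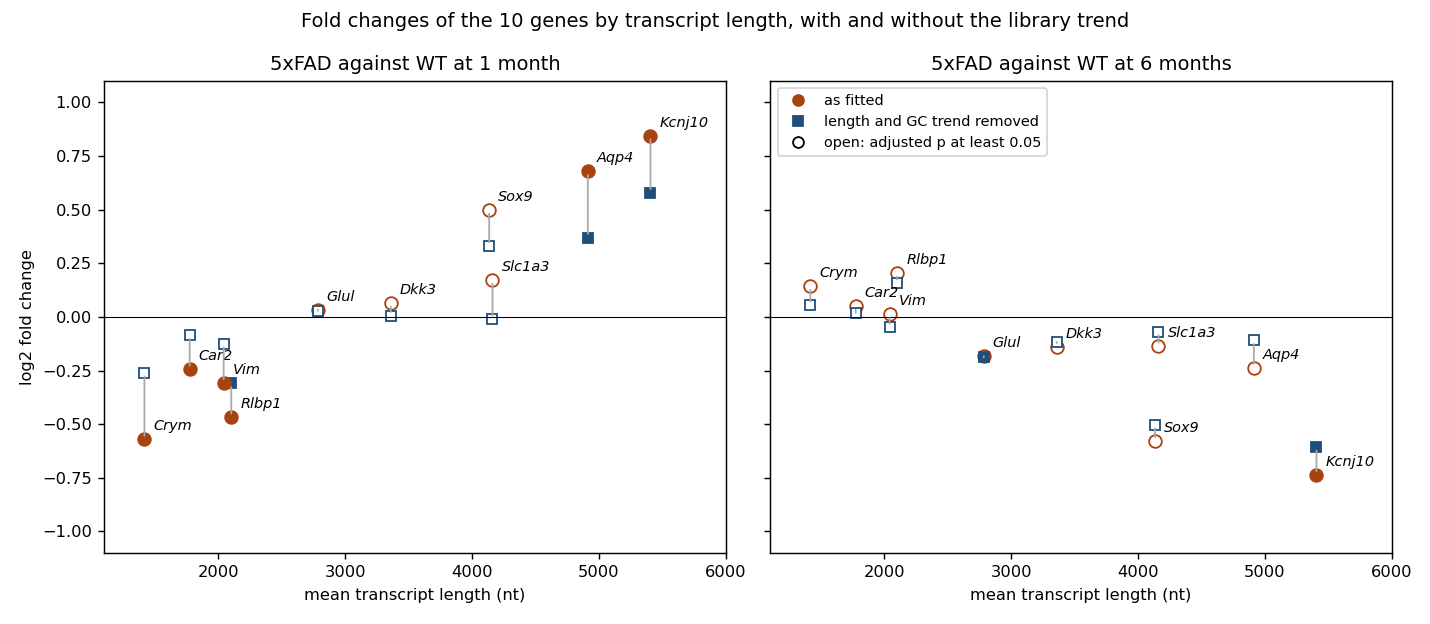
Log2 fold change of 5xFAD against WT (vertical axis) by mean transcript length in nt (horizontal axis) for the 10 genes at each age, as fitted (circles) and with the library trend on length and GC content removed (squares); open symbols did not pass. At 1 month the values move toward 0 for short and long genes alike, and Kcnj10, Aqp4 and Rlbp1 stay called.

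At the level of transcripts, 25 of the 46 of the 10 genes had enough counts to be tested. At 1 month 3 passed, where 2.52% of all tested transcripts did: Kcnj10-201 (0.86, SE 0.16, adjusted p 0.0221), Vim-201 (-0.61, SE 0.10, adjusted p 0.0174) and Rlbp1-202 (-0.56, SE 0.11, adjusted p 0.0296). At 6 months 0 passed in edgeR, where 0.488% did, 5 had an unadjusted p below 0.05, and Kcnj10-201 had -0.79 (SE 0.16, adjusted p 0.0636). Kcnj10, Sox9 and Dkk3 have 1 annotated transcript each, so their transcript and gene values hold the same reads. With age in WT Kcnj10-201, Glul-201 and Crym-201 passed (0.916% of all), and with age in 5xFAD Vim-201, Car2-201, Rlbp1-202 and Kcnj10-201 (3.12% of all). The difference between the ages passed for 3 (6.05% of all). With age in WT, the fits with 1 library left out kept Crym-201 in 8 of 12, Kcnj10-201 in 7 and Glul-201 in 3. With age in 5xFAD they kept Vim-201 in 12 of 12, Rlbp1-202 in 9, Car2-201 in 5 and Kcnj10-201 in 1. The fits with 1 library left out kept Vim-201 at 1 month in 10 of 12 (lost without 5xFAD 1-month replicate 1 or 3, adjusted p 0.0612 and 0.0648) and Kcnj10-201 and Rlbp1-202 in 6 of 12 each.

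The share of Vim counts in Vim-201, a protein-coding transcript, at 1 month was 77.4, 83.0 and 93.6% for WT, while 5xFAD had 72.3, 74.9 and 57.8%. At 6 months WT had 92.3, 90.1 and 84.3% and 5xFAD 98.1, 98.1 and 93.5%. Vim-201 was thus the lowest in 5xFAD at 1 month and the highest in 5xFAD at 6 months. The counts of Vim-201, which were tested in place of its share, rose with age in 5xFAD (0.70, SE 0.10, adjusted p 0.00844). That call was kept in 12 of 12 fits with a library left out. The genotype effects on these counts differed by 0.69 (SE 0.15, adjusted p 0.0235). The protein-coding Vim-206 (1777 nt) held 18.5, 12 and 28.1% at 1 month in 5xFAD and 15, 2.88 and 0% in WT. The test of its counts did not pass (1.43, adjusted p 0.791). The retained-intron transcript Vim-204 held 0, 7.06 and 4.88% in 5xFAD of that age and was listed at 0 in WT, on too few counts to be tested.

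Aqp4-201 (5054 nt) held 40.3, 11.6 and 49.3% of the young WT counts of Aqp4, while 5xFAD of that age had 99.7, 97.2 and 84.7%. By 6 months WT had 33.9, 19.2 and 23.2% and 5xFAD 23.7, 0 and 30.0%. The 5xFAD libraries of 1 month lay above the other 9, but the test of the transcript's counts did not pass (2.12, SE 1.19, adjusted p 0.422). The counts not in Aqp4-201 lay mostly in transcripts that the annotation used here does not name.

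**Figure D5:**
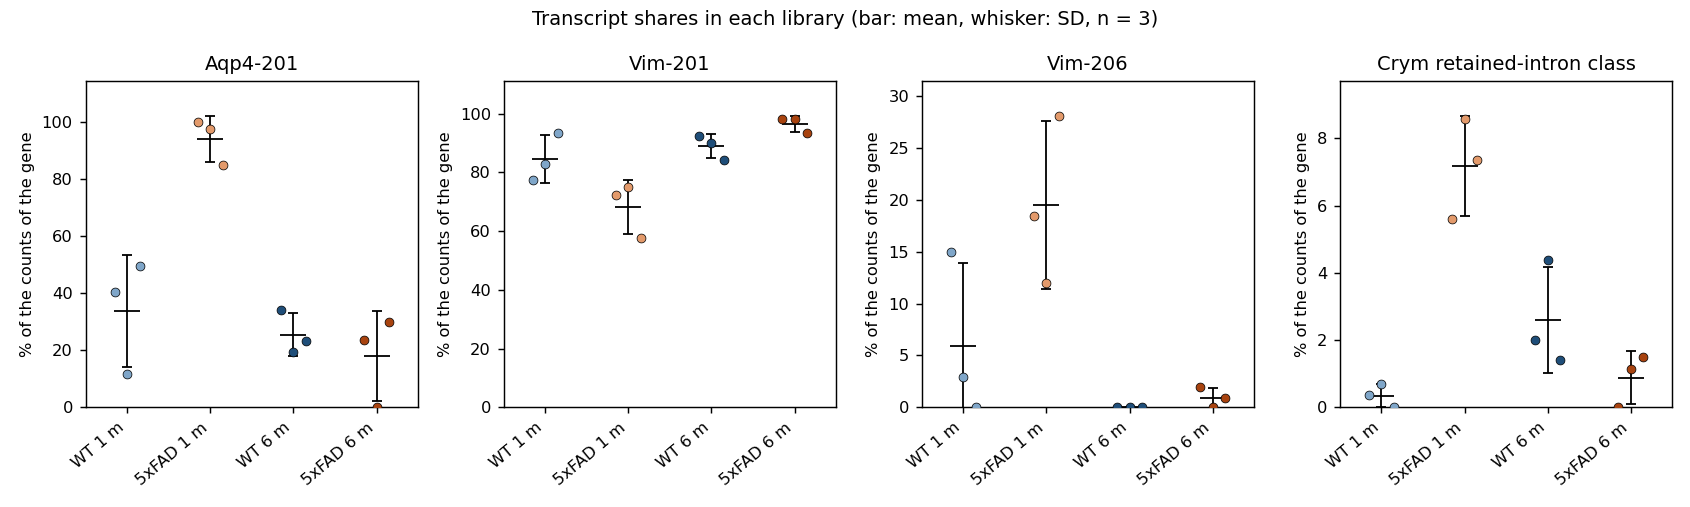
Share of a gene's counts (%, vertical axes) held by Aqp4-201, Vim-201, Vim-206 and the retained-intron class of Crym in the 3 libraries of each group; points are libraries, bars means and whiskers SD. The 5xFAD libraries of 1 month are highest for Aqp4-201 (84.7 to 99.7%) and Crym (5.61 to 8.56%) and lowest for Vim-201 (57.8 to 74.9%).

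Retained introns, which the title of the study names, could be tested in 6 of the 10 genes (Slc1a3, Glul, Rlbp1, Car2, Vim and Crym). The retained-intron share of Crym, carried by the 2681-nt transcript Crym-202, at 1 month was 0.360, 0.696 and 0% for WT, while 5xFAD had 5.61, 8.56 and 7.37%. At 6 months WT had 2.00, 4.39 and 1.42% and 5xFAD 0, 1.15 and 1.5%. The 5xFAD libraries of 1 month stood above the other 9 on counts of 25.1 to 36.2, against at most 4.31 in WT of that age. Crym was the only one of the 6 called at 1 month (log2 odds 4.65, SE 1.03, adjusted p 0.0389), where 2.89% of genes were called. It was called again in the difference between the ages (-6.35, SE 1.45, adjusted p 0.0262), where 7.74% were. Over all tested genes the median log2 odds went the same way, at 0.36 at 1 month and -0.72 in the difference. Crym-202 (2681 nt) is longer than Crym-201 (1383 nt), and the 5xFAD libraries of 1 month had the longest mean transcripts. The part of length in the Crym share was not tested. None of the 6 was called at 6 months or with age in WT or 5xFAD, where 0.189%, 0.44% and 2.89% of genes were, and at an unadjusted p below 0.05 there were 1, 2 and 2. The 1-month call was kept in 4 of 12 fits with a library left out (it was lost without any of the 6 libraries of 1 month and without WT 6-month replicate 1 or 2, with adjusted p up to 0.119) and the difference in 7 of 12 (lost without any 5xFAD library of 1 month or WT 6-month replicate 1 or 2, adjusted p up to 0.0816). With a required mean of 50 counts of each kind, Crym was no longer among the genes tested. The Rlbp1 value at 1 month (2.73, SE 0.77, adjusted p 0.0870) passed only without WT 1-month replicate 3 (1.98, adjusted p 0.0495), as did that of the difference between the ages (-2.54, adjusted p 0.0304). Vim, with retained-intron shares of 6.42 to 14.1% in WT and 9.19 to 14.1% in 5xFAD at 1 month, had 0.49 (SE 1.02, adjusted p 0.853).

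The genes nearest in pattern to each of the 10 were found by the Pearson correlation of log2 CPM over the 12 libraries, among 11217 genes, as a description of libraries that share groups, depth and transcript length. Nearest to Kcnj10 were Mapre2 (0.982) and Prex2 (0.962), and nearest to Aqp4 were St8sia5 (0.964) and Slc35e1 (0.957). For Rlbp1 they were Cartpt (0.966) and Pcbp3 (0.964), for Vim Pcbp3 (0.941) and Akap7 (0.937), and for Car2 Ywhae (0.963) and Etnppl (0.947). For Crym they were Tuba1a (0.953) and Actb (0.942), and for Slc1a3 Abhd2 (0.963) and Rgs6 (0.955). For Glul they were Cacng7 (0.938) and Pon2 (0.916). Dkk3 and Sox9 had weaker matches, Frmd5 (0.905) and Ccnd1 (0.903) for Dkk3 and Cdkn1b (0.913) and Trub2 (0.913) for Sox9. Among the 10 genes themselves, the highest correlations were those of Glul with Dkk3 (0.890), Rlbp1 with Vim (0.884), Rlbp1 with Car2 (0.846) and Aqp4 with Kcnj10 (0.817). The lowest was that of Rlbp1 with Sox9 (-0.783). The 10 genes thus fell into more than 1 pattern over the libraries.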

How the data were processed

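Polyadenylated RNA of whole mouse retina was measured in 12 libraries, 3 in each of 4 groups, which were taken from the titles of the samples. The values are the authors' expected counts per gene and per transcript, raw as deposited. Builds and tools listed in the submitters' processing notes are GRCm38.p6, RSEM 1.3.3, STAR 2.7.1a, DESeq2 1.32.0 and Trim Galore 0.6.6, and the annotation is not given in the sources used here. The kit named in the labels' protocols does not mark strand.

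Rounded expected counts went into edgeR 4.0.16 in R 4.3.3 (quasi-likelihood, robust, TMM scaling, filterByExpr by group; limma 3.58.1). All 12 libraries were in the fit, with 8 residual degrees of freedom, and p-values were adjusted by Benjamini-Hochberg over all tested features. A feature was called at an adjusted p below 0.05. SE is the log2 fold change divided by the square root of its F. CPM are TMM-scaled, with a prior count of 2 for log2 values. TPM use the count-weighted transcript length. Gene and transcript identifiers were matched to GENCODE M21 on GRCm38 (55227 of 55487 genes and 141469 of 142699 transcripts). Retained-intron shares were tested in edgeR on paired counts of that transcript class and of the others, each with a mean of at least 10 (4769 genes). The scripts were tested on simulated data.

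The 10 genes, the lists and the tests were chosen with earlier results of these data known. Named from each list are at most the 4 genes of smallest p with a mean of at least 1 CPM; some are not reported here. The genes of likest pattern are the best matches among tested genes of at least 5 CPM. Alternatives were other scalings (DESeq2 1.42.0 size factors, library size alone), filters, the Wald test of DESeq2, the groups compared alone, a replicate block, spline fits (4 degrees of freedom) of each library on GC content and length taken out as an offset, for 16205 of 16233 genes, and libraries left out, singly or the 3 with most ribosomal RNA together. Python 3.11.15, pandas 2.3.3 and matplotlib 3.10.9 read the RefSeq promoters and drew the figures. Reads and protein sequences were not used here.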

Additional observations from a re-analysis of the deposited data

Results flagged for a closer look

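The genotype effect differed between 6 months and 1 month, by the interaction test of edgeR, for 5 of the 10 genes. The difference (6 months minus 1 month, log2) was -1.58 for Kcnj10 (adjusted p 2.37e-06), -0.91 for Aqp4 (8.36e-05), 0.67 for Rlbp1 (0.000217), -1.08 for Sox9 (0.0161) and 0.71 for Crym (0.0115). Of all tested genes 25% passed the same test. With a library left out in turn, Crym was kept in 10 of 12 fits and each of the others in 12. Once the length and GC trend was removed, Sox9 and Crym no longer passed, as given above.

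At the level of transcripts it differed for Kcnj10-201 (-1.65, adjusted p 0.00317), Vim-201 (0.69, adjusted p 0.0235) and Rlbp1-202 (0.64, adjusted p 0.0402), where 6.05% of all tested transcripts passed. With a library left out in turn, these calls were kept in 12, 8 and 4 of 12 fits. The retained-intron share of Crym differed by -6.35 in log2 odds (adjusted p 0.0262), on at most 36.2 retained-intron counts a library. The median over all genes tested for this share was -0.72, and 7.74% of them passed. The causes of these differences were not tested.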

How the results depend on the processing

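The libraries number 3 a group, their transcript length and ribosomal RNA content moved with the groups, and Sox9 and the retained-intron counts are low, so small changes of these may not be detectable. Of the recomputed log2 fold changes of the 10 genes, 969 kept direction and side of the threshold, 40 fell below it, 16 rose above it and 15 turned direction, none of them a called value. The number of the 10 genes called was 2 at 6 months and 8 in the interaction by the DESeq2 Wald test. With the length and GC trend removed it was 3 at 1 month, 2 at 6 months and 3 in the interaction, while all genes called went from 3178 to 1936 at 1 month. Without the 3 libraries richest in ribosomal RNA it was 0 at 6 months and 2 with age in 5xFAD. For transcripts it was 5 in the interaction with DESeq2 size factors and 5 at 1 month with a filter of 1 CPM. Retained-intron calls were 0 at 1 month and in the interaction at a minimum of 50 counts, where Crym was not tested. The causes were not tested.

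Leaving out 1 library at a time, the genes called ranged from 3 to 6 at 1 month, 1 to 1 at 6 months, 4 to 6 with age in WT, 3 to 5 with age in 5xFAD and 4 to 6 in the interaction. For transcripts the ranges were 0 to 4, 0 to 1, 0 to 3, 1 to 4 and 1 to 4, and for retained-intron shares 0 to 1, 0 to 0, 0 to 0, 0 to 0 and 0 to 2.

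The values that turned direction follow. Vim at 6 months was -0.0112 with library size alone, -0.0167 with 1 count in all libraries as filter, -0.00369 with 1 CPM in 3 libraries, -0.0481 with the trend removed and -0.0272 without the libraries rich in ribosomal RNA. With single libraries left out it ran from -0.0438 (WT 6-month replicate 2) to 0.0411 (WT 6-month replicate 3), and was negative without WT 1-month replicates 1 and 3, WT 6-month replicate 1 and 5xFAD 6-month replicate 2 too. With the trend removed, Slc1a3 was -0.00991 at 1 month, against 0.17, and -0.0283 with age in WT, and Vim 0.0161 with age in WT. With single libraries left out, Crym at 6 months ran from -0.0166 (WT 6-month replicate 1) to 0.248 (WT 6-month replicate 3), and Car2 from -0.0195 (5xFAD 6-month replicate 3) to 0.0747 (WT 6-month replicate 3).

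Replicate numbers are shared between groups, but same-numbered libraries did not deviate together (0 of 18 pairs had a correlation over 0.1, range -0.0852 to 0.0623). With a replicate block the gene counts stayed at 6, 1, 5, 4 and 5, and the transcript counts became 0 at 1 month, 1 with age in WT, 1 with age in 5xFAD and 1 in the interaction. No 2 replicates were copies of each other (chi-square per degree of freedom 4.05 to 26.7).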

Other observations

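With age in 5xFAD, 5 of the 14 tested retinoid-handling genes rose and 2 fell, where 23.2% of all genes were called. The photoreceptor gene Rbp3 fell (log2 -0.61, SE 0.07, adjusted p 4.46e-06), and Dhrs3 (0.63, SE 0.12, adjusted p 0.000383) and the retinal dehydrogenase gene Aldh1a1 (0.65, SE 0.15, adjusted p 0.00310) were among those that rose. Pigment epithelium markers rose in the same comparison for 3 of 12 tested genes, and their part was not tested. In WT, 1 of the 14 retinoid genes rose with age (Rdh8, 0.39, adjusted p 0.0408) and 0 fell, where 10.5% of all genes were called. Ceruloplasmin (Cp) rose with age in WT (0.85, SE 0.12, adjusted p 0.000137), as did A2m (1.14, SE 0.32, adjusted p 0.0226), the 2 called of 16 reactive glia genes. The glutamine transporter gene Slc38a1 rose with age in WT (0.68, SE 0.11, adjusted p 0.000270) and fell in 5xFAD (-0.52, SE 0.11, adjusted p 0.00104).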
